A study of Mus musculus with 3 samples.

Results

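Single-cell RNA sequencing was used to compare splenic B cells between a library of C57BL/6 mice that received angiotensin II (Ang II) and a control library of the same strain. A barcode was taken as a B cell when it held 2 or more unique molecular identifiers (UMIs) of Cd79a, the signalling chain of the B cell receptor, and none of Cd3e, Lyz2 or Nkg7, which mark T cells, myeloid cells and NK cells. This rule gave 36311 B cells among the 54971 barcodes of the 3 libraries of the series. The comparison used 17209 of them, 10591 of the Ang II library and 6618 of the control library that carried hashtags C0301 to C0303.

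Spleen cells had been depleted of T cells with CD3 microbeads, and the cells of 3 mice per condition were combined and marked with hashtag antibodies. The mice were C57BL/6 of 12 to 14 weeks, and the labels state that minipumps lasting 2 weeks, with sham or with Ang II at 490 ug/kg/min, were placed at 10 weeks of age. The dose unit is printed as the labels write it and could not be checked here. The Ang II library held mice given Ang II with placebo and mice given Ang II with 2-HOBA, a scavenger of isolevuglandins, and the control library held male sham and female mice. A hashtag population, that is the B cells carrying 1 hashtag in 1 library, was the unit of replication, with 6 populations for Ang II and 3 for the control. The labels do not say which hashtag marked which condition or mouse, so the Ang II group mixes cells with and without 2-HOBA. Each treatment was a single library, so effects of Ang II and of the library cannot be told apart. P values measure only the spread between hashtag populations, which may be technical.

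The control hashtags were chosen by Y-linked transcripts. A UMI of Ddx3y, Eif2s3y, Kdm5d or Uty was found in 24.5% to 26.2% of B cells of control C0301 to C0303 and in 0.265% to 0.509% of those of control C0304 to C0306. Xist was detected in 0.560% to 0.863% of the former and in 53.4% to 55.3% of the latter. The Ang II populations carried Y-linked UMIs in 35.5% to 38.4% of B cells and no Xist UMI. Sham is the only male condition named for the control library, and the groups are called by their hashtags below.

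Ang II is the effector peptide of the renin-angiotensin system and raises blood pressure through the type 1 receptor. In antigen-presenting cells, Ang II hypertension is known for NADPH oxidase-derived superoxide and lipid oxidation products such as isolevuglandins. B cells sense antigen through a receptor made of immunoglobulin and the Cd79a and Cd79b chains, present peptides on MHC class II, and in the spleen divide into follicular and marginal zone cells.

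B cells made up 67.6% to 81.9% of the barcodes of the Ang II populations and 78.0% to 82.5% of those of the control populations. The mean share was 76.8% ± 5.83 (SD, n = 6) with Ang II and 80.5% ± 2.29 (SD, n = 3) in the control (two-sided exact permutation test, p = 0.333, where 0.0238 was the smallest p that 84 arrangements allow). The groups overlapped, and Ang II C0301 to C0303, at 77.5%, 71.8% and 67.6%, were the 3 lowest shares of all 9 populations. Depth differed: the median was 2759 to 2879 UMIs per B cell with Ang II and 1702 to 1814 in the control (exact permutation p = 0.0238, the smallest possible). Summed counts held 4266153 to 7131057 UMIs per Ang II population and 3068072 to 5731822 per control population. Every replicate pair differed beyond counting noise, with a chi-square per degree of freedom of 5.99 to 10.7 among Ang II and 2.03 to 6.90 among control populations.

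**Figure D1:**
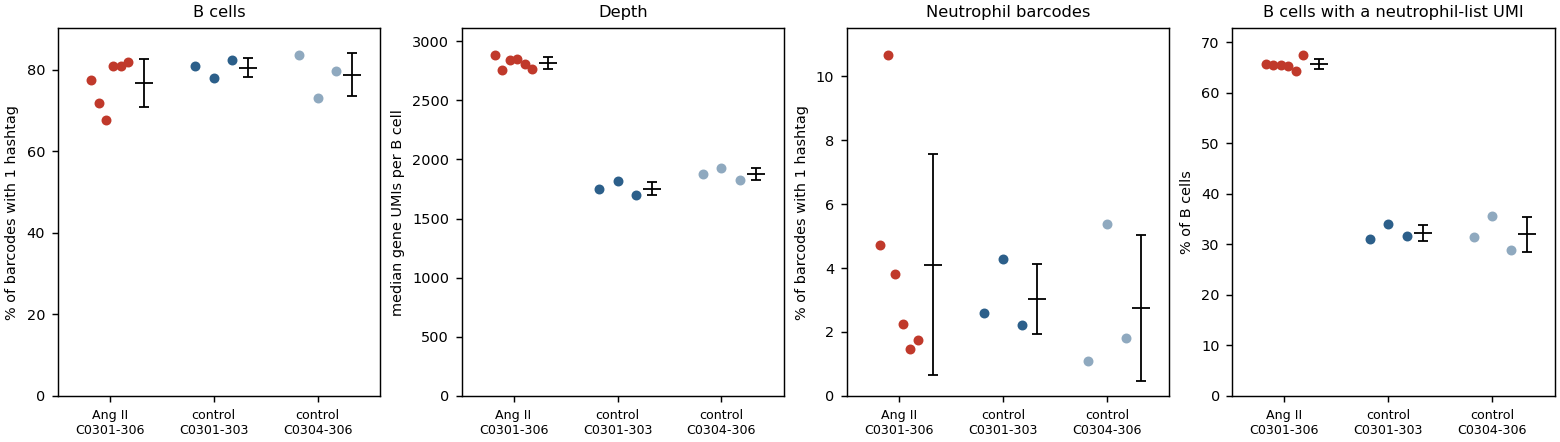
The 4 panels plot, for each hashtag population (points), the share of B cells, the median UMIs per B cell, the share of neutrophil barcodes and the share of B cells with a UMI of the neutrophil list, with the mean and SD beside them. B cell shares overlap between groups, whereas depth and the share of B cells with a neutrophil UMI do not. The last share is 64.3% to 67.4% with Ang II against 31.0% to 34.0% in control C0301 to C0303, at unequal depth. It was not thinned, and the list includes Pglyrp1, found in 28.5% of Ang II and 22.1% of control B cells.

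The other B cell markers were present in both groups. Ms4a1, which encodes the surface protein CD20, was detected in 89.2% of Ang II and 80.4% of control B cells at their unequal depths, and its level was 1010 to 1133 and 1005 to 1254 CPM, the UMI count of a gene scaled to 1000000 UMIs over all genes of a population. Cd74, the invariant chain, stood at 25350 to 27043 CPM with Ang II and 23434 to 24952 CPM in the control. In NK barcodes (Nkg7 at 2 or more UMIs with Cd79a, Cd3e and Lyz2 absent), Cd74 was at 315 and 263 CPM in the same order. All levels given below are in this CPM unit, and all fold changes are differences on the log2 scale, Ang II minus control, from the fit described with the processing.

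RNA of neutrophil granules was more widespread among B cells of the Ang II library. Ngp, which encodes a granule protein of maturing neutrophils, had a level of 30.6, 31.1 and 37.7 CPM (lowest, median and highest of 6) with Ang II and of 2.70, 2.09 and 3.91 CPM in the 3 control populations, with no overlap (log2 fold change 3.5 ± 0.158 SE, edgeR adjusted p = 2.8e-13). Lcn2, Camp and Ltf, also granule genes, had log2 fold changes of 2.97, 2.89 and 2.55, and Chil3 of 1.74 (edgeR adjusted p = 7.1e-09, 5.2e-11, 2.3e-06 and 0.004). Of the 25 genes of the neutrophil list, 17 were tested, these 5 were called higher and none lower. DESeq2 called 3 of the list higher and 2 lower.

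S100a8 and S100a9, the most abundant neutrophil transcripts, differed in spread rather than in sum. The level of S100a9 was 82.3, 96.8 and 144 CPM (lowest, median, highest) with Ang II and 44.2, 89.2 and 169 CPM in the control, so the groups overlapped (log2 fold change 0.01 ± 0.394 SE, edgeR adjusted p = 0.99). A UMI of S100a9 was found in 22.5% of Ang II and 4.17% of control B cells, and still in 8.71% and 2.29% after each cell was thinned to 1000 UMIs, which left out 276 and 326 shallower cells. Positive cells held 1.5 UMIs of S100a9 on average with Ang II and 4.57 in the control. In the control, 16 B cells with 5 or more UMIs held 78.4% of all S100a9 UMIs, and with Ang II 24 such cells held 20.9%. NK barcodes, which should lack these genes, had an S100a9 UMI in 21.4% (346 Ang II barcodes, median 2523 UMIs) and 3.49% (258 barcodes of control C0301 to C0303, median 1657 UMIs), close to the shares in B cells of each library.

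Neutrophil barcodes themselves (20 or more UMIs of both S100a8 and S100a9) made up 1.46% to 10.6% of the Ang II and 2.21% to 4.29% of the control populations, so their share overlapped. Ang II C0302 had the most, 10.6%. Ngp stood at 46490 CPM in neutrophil barcodes of the Ang II library and at 28811 CPM in those of the control library. The neutrophil list without Lyz2 reached in B cells 0.0928% of its level in neutrophil barcodes of the same library with Ang II, and 0.0893% in the control. Applied to Ngp, that share comes to 43.1 CPM with Ang II and 25.7 CPM in the control. The levels measured in B cells were 30.6 to 37.7 CPM and 2.09 to 3.91 CPM, so the share did not predict the control level. The list behind the share includes Pglyrp1, at a mean of 116 CPM in Ang II and 133 CPM in control B cells. Pglyrp1 was not called (log2 fold change -0.24, edgeR adjusted p = 0.054). Pooled NK barcodes also held it, at 353 CPM with Ang II and 377 CPM in the control. Genes with 10 or more times their B cell level in neutrophil barcodes were kept out of the ranking by size given below. Of the 229 such genes tested, 11 were called higher and 13 lower, beside 8.87% and 10.3% of all genes tested.

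Across all genes, 10613 were tested and 2029 (19.1%) were called at an adjusted p under 0.05, 941 higher (8.87%) and 1088 lower (10.3%) with Ang II. Most differences were small: the median size among called genes was 0.32 on the log2 scale, and 217 (2.04% of genes tested) reached 1.5-fold, 150 higher and 67 lower. At 2-fold or more, 64 were higher and 14 lower. Scaling by library totals alone moved the median of all genes from 0.01 to 0.05 and the split to 1171 higher and 801 lower. All 1740 calls shared with that scaling kept their direction. Thinning every B cell to 1000 UMIs left 1159 called genes, and leaving out B cells with a neutrophil-list UMI left 1082.

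**Figure D2:**
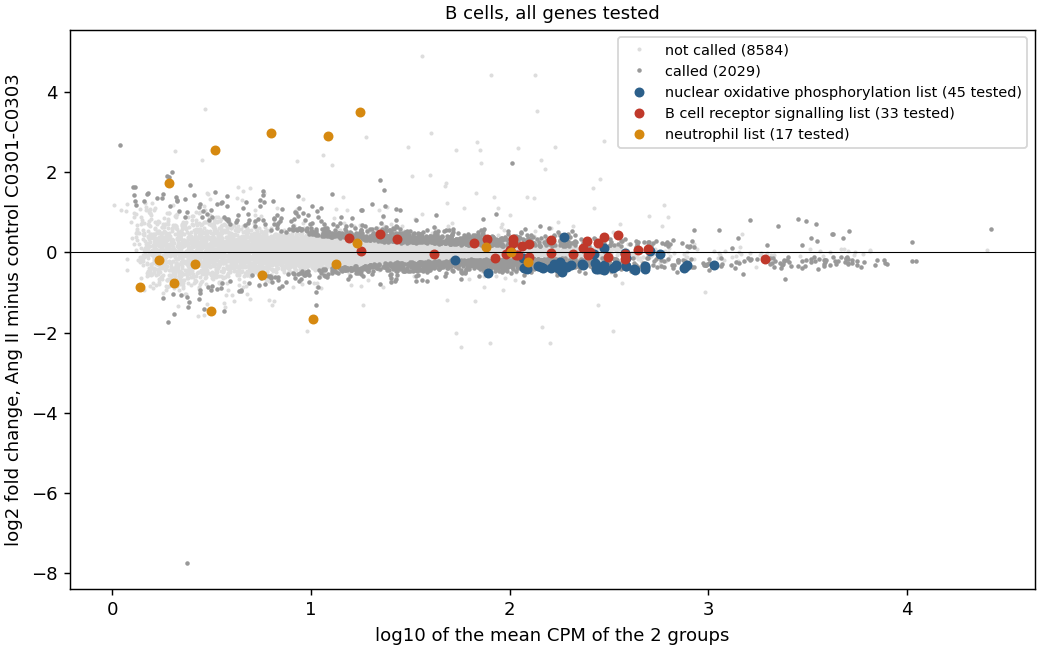
Each point is 1 of the 10613 genes tested, with the log10 of its mean CPM over the 2 groups on the horizontal axis and its log2 fold change (Ang II minus control C0301 to C0303) on the vertical axis. The nuclear oxidative phosphorylation genes (blue) lie below 0 with few exceptions, the B cell receptor signalling genes (red) lie on both sides with more called above, and Ngp, Lcn2, Camp and Ltf (orange) stand highest of the neutrophil list. The lowest point is Xist, with no UMI in the Ang II populations.

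Nuclear genes of oxidative phosphorylation were lower with Ang II. The respiratory complexes of mitochondria pass electrons to oxygen, and the ATP synthase uses the resulting proton gradient. All 45 genes of the list were tested, 37 were called lower and 1 higher, against 10.3% and 8.87% of all genes, and the median log2 fold change was -0.35 beside 0.01 for all genes. Complex I had 17 of 18 genes lower, complex III 5 of 5, complex IV 9 of 10 and the ATP synthase 6 of 10. No gene of complex II (2 tested) was called by edgeR or DESeq2, although both had an unadjusted p under 0.05 in edgeR. The counts stayed within 35 to 39 lower and 1 or 2 higher over all 23 alternative settings, and the median stayed between -0.38 and -0.31.

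Ndufb7, a subunit of complex I (chr8:83566671-83571626, mm10), had levels of 147, 155 and 159 CPM (lowest, median, highest) with Ang II and of 219, 211 and 206 CPM in the control (log2 fold change -0.50 ± 0.0516 SE, edgeR adjusted p = 3.6e-07). Atp5h, of the ATP synthase (chr11:115415689-115419962), stood at 356, 368 and 382 CPM against 490, 496 and 476 CPM (-0.44 ± 0.0435 SE, edgeR adjusted p = 1.5e-07). In both genes every Ang II population lay below every control population, and the control C0304 to C0306 populations, at 187 to 209 and 460 to 490 CPM, lay with the other control. Atp5l and Ndufa4, each with a log2 fold change of -0.42, completed the 4 with the smallest p. The member called higher was Atp5k, an ATP synthase subunit, with 215 ± 6.53 CPM (SD, n = 6) against 161 ± 3.74 CPM (SD, n = 3) and a log2 fold change of 0.37 (edgeR adjusted p = 9.5e-06).

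The summed level of the 45 genes was 12989 to 13188 CPM in the Ang II populations and 15405 to 15666 CPM in the control populations, with 15430 to 15837 CPM in control C0304 to C0306. NK barcodes of the same hashtags moved the same way: 16921 to 18254 CPM with Ang II and 20999 to 22477 CPM in the control, with no overlap. The difference was not tested in the NK barcodes, which are few (346 and 258).

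Transcripts encoded by mitochondrial DNA, core subunits of the same complexes, followed in part. Of the 13, all tested, 8 were called lower and 3 higher, with a median of -0.23, beside 10.3% and 8.87% of all genes. The level of mt-Co2, a complex IV subunit, was 1814, 1897 and 1978 CPM with Ang II and 2307, 2428 and 2372 CPM in the control (log2 fold change -0.36 ± 0.0387 SE, edgeR adjusted p = 6.6e-07). mt-Nd4, mt-Co1 and mt-Co3 had log2 fold changes of -0.40, -0.28 and -0.30. mt-Nd6, at 80.6 ± 5.44 against 58.4 ± 4.27 CPM, and mt-Nd3, at 138 ± 10.8 against 114 ± 7.50 CPM, rose (log2 fold changes 0.42 and 0.24, edgeR adjusted p = 0.00018 and 0.0055). Over the summed list the Ang II populations, at 16278 to 17413 CPM, stood below the control, at 18899 to 19260 CPM. In NK barcodes the summed level overlapped between the groups (10022 to 12058 and 10922 to 13435 CPM).

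Genes of cytosolic ribosomal proteins, a list drawn up after the values were seen, also fell for the most part. Of 77 tested 56 were lower, 9 higher and 12 not called, beside 10.3% lower and 8.87% higher over all genes. Rps14 stood at 2044 ± 38.2 CPM (SD, n = 6) with Ang II against 2591 ± 47.5 CPM (SD, n = 3), a log2 fold change of -0.38 (edgeR adjusted p = 1.5e-07). In contrast Rpl35a rose from 2245 ± 39.4 to 3939 ± 85.9 CPM, Rpl21 from 2619 ± 29.99 to 4383 ± 100.1 CPM and Rpl17 from 1171 ± 12.3 to 2088 ± 55.8 CPM (log2 fold changes 0.77, 0.70 and 0.80; edgeR adjusted p = 3.8e-13, 1.3e-12 and 2.1e-12). Rpl35a was also higher in NK barcodes of the Ang II library, at 2497 against 1516 CPM. Reads of these genes can be split among near-identical pseudogenes, so their counts are uncertain.

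Calls were unevenly spread over transcript length. The tested genes were divided into 5 bins of equal size by their longest annotated transcript. In the bin of the shortest, up to 1783 bases, 22% were called lower and 6.41% higher. In the next bin, 1784 to 2772 bases, 7.22% were lower and 13.5% higher, and in the bin of the longest transcripts 9.53% and 5.38%. The part of length in these results was not tested.

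**Figure D3:**
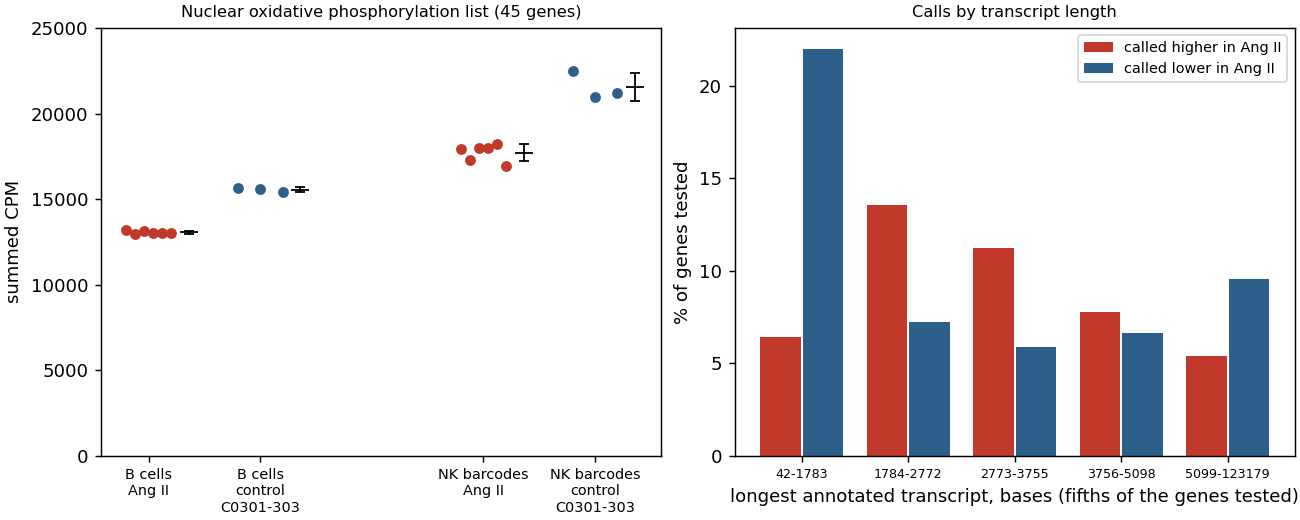
The left panel plots the summed CPM of the 45 nuclear oxidative phosphorylation genes in each hashtag population (points, with mean and SD), for B cells and for NK barcodes; Ang II lies below the control in both cell types. The right panel plots the share of tested genes called higher (red) or lower (blue) in each of 5 bins by transcript length, with 22% lower in the shortest.

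Among redox genes, several antioxidant enzymes were lower. Sod1, the cytosolic superoxide dismutase (chr16:90220754-90226329), was at 17.8, 20.1 and 24.6 CPM with Ang II and at 35.1, 30.01 and 31.9 CPM in the control (log2 fold change -0.70 ± 0.101 SE, edgeR adjusted p = 1.9e-05). Gpx1, which reduces peroxides with glutathione, was at 679, 698 and 722 CPM against 833, 815 and 908 CPM (-0.32 ± 0.0408 SE, edgeR adjusted p = 4.3e-06), although control C0304 to C0306, at 693 to 852 CPM, reached into the Ang II range. Gclm, a subunit of the enzyme that starts glutathione synthesis, had 20.5 ± 0.989 against 29.4 ± 0.660 CPM (log2 fold change -0.56, edgeR adjusted p = 5.2e-05). Catalase (Cat), at 73.1, 79.0 and 83.7 CPM against 58.5, 55.8 and 60.3 CPM, was higher (0.40 ± 0.0640 SE, edgeR adjusted p = 8.4e-05), as was Nfe2l2, the regulator of antioxidant genes, with 54.4 ± 3.24 against 43.1 ± 4.24 CPM. Of 22 antioxidant genes 19 were tested, 6 were lower and 3 higher, with a median of -0.14, beside 10.3% lower and 8.87% higher over all genes. With B cells thinned to 1000 UMIs, 4 of 18 tested were lower and none higher, and Cat was at 0.27 and not called. In pooled NK barcodes Sod1 was at 23.7 CPM with Ang II against 42.4 CPM and Gclm at 28.7 against 48.8 CPM. Gpx1 was there at 196 against 263 CPM and Cat at 54.4 against 33.9 CPM, the same directions as in B cells. These differences were not tested, and the summed antioxidant list overlapped in NK barcodes (2425 to 2699 CPM against 2418 to 3080 CPM).

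Of the 7 NADPH oxidase genes, all tested, 1 was lower and 1 higher, beside 10.3% and 8.87% of all genes. Cyba, the p22phox membrane subunit, was at 831, 850 and 940 CPM with Ang II and at 1098, 988 and 1036 CPM in the control (log2 fold change -0.30 ± 0.0454 SE, edgeR adjusted p = 3.1e-05). Rac2, the GTPase that activates the complex, was at 899 ± 20.7 against 792 ± 12.1 CPM (0.14 ± 0.0400 SE, edgeR adjusted p = 0.013), a call lost without control C0301 (0.13). Cybb, the catalytic subunit, was at 201.1 ± 7.54 against 193 ± 12.1 CPM and was not called (edgeR adjusted p = 0.81).

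Genes of the angiotensin system were mostly not detected in B cells. Agtr1a and Agtr1b, the type 1 receptors, Agtr2, the type 2 receptor, Mas1, Agt, Ren1 and Enpep had no UMI in any of the 17209 B cells, which limits B cells holding a UMI, but not those expressing the gene, to 0.0283% with Ang II and 0.0453% in the control (3 counts of the total, counting error only). Ace had 5 UMIs in each group, and Nr3c2, the mineralocorticoid receptor, 38 with Ang II and 13 in the control. Abundant enough to test were 2 genes. Atp6ap2, the prorenin receptor, was at 39.9 ± 2.01 against 39.8 ± 3.22 CPM (log2 fold change -0.04 ± 0.0751 SE, edgeR adjusted p = 0.78). Lnpep, an aminopeptidase that cleaves angiotensin peptides, was at 148 ± 10.8 against 151 ± 12.5 CPM (-0.07 ± 0.0592 SE, edgeR adjusted p = 0.49). Both groups overlapped in both genes. Neither had an unadjusted p under 0.05 or was called by DESeq2.

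Of the genes that carry the B cell receptor signal, more were called higher than lower. All 33 of the list were tested, 11 were higher (8.87% of all genes) and 1 lower, with a median of 0.05. Lyn, the kinase that phosphorylates the receptor chains (chr4:3678115-3813122), was at 388, 410 and 424 CPM with Ang II and at 310, 268 and 314 CPM in the control (log2 fold change 0.43 ± 0.0478 SE, edgeR adjusted p = 9.2e-07). Blnk, the adaptor that links the receptor to downstream enzymes (chr19:40928927-40994535), was at 331, 345 and 358 CPM against 253, 259 and 260 CPM (0.37 ± 0.0483 SE, edgeR adjusted p = 5.2e-06). Neither gene overlapped between groups, and control C0304 to C0306 lay with the other control, at 284 to 311 CPM for Lyn and 266 to 270 CPM for Blnk. Vav1, an exchange factor, and Cd81, a tetraspanin, rose by 0.34 and 0.28 on the log2 scale. Sos1, Btk, Malt1, Nfatc1, Ptpn22 and Vav3 were also called higher. Cd79b was called lower, at 1848 ± 134 against 2011 ± 125 CPM, and its groups overlapped (log2 fold change -0.16, edgeR adjusted p = 0.014). Over the alternatives 7 to 13 of the list were higher and 0 to 3 lower. The summed list overlapped in B cells, at 7658 to 8232 CPM with Ang II and 7139 to 7928 CPM in the control. In NK barcodes it was higher without overlap, at 2473 to 2714 CPM with Ang II against 2389 to 2415 CPM. Lyn was at 101 against 61.5 CPM in pooled NK barcodes. The NK differences were not tested.

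Transcription factors of the B lineage moved both ways. Pax5, which maintains B cell identity (chr4:44524757-44710487), was at 235, 251 and 269 CPM with Ang II and at 324, 323 and 345 CPM in the control (log2 fold change -0.44 ± 0.0467 SE, edgeR adjusted p = 5.7e-07). Pou2f2, which drives immunoglobulin promoters, was at 233, 259 and 273 CPM against 322, 318 and 343 CPM (-0.39 ± 0.0496 SE, edgeR adjusted p = 4.7e-06). Ikzf1 and Mef2c had log2 fold changes of 0.28 and 0.21. In all, 5 of 20 were higher and 3 lower, beside 8.87% and 10.3% of all genes.

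**Figure D4:**
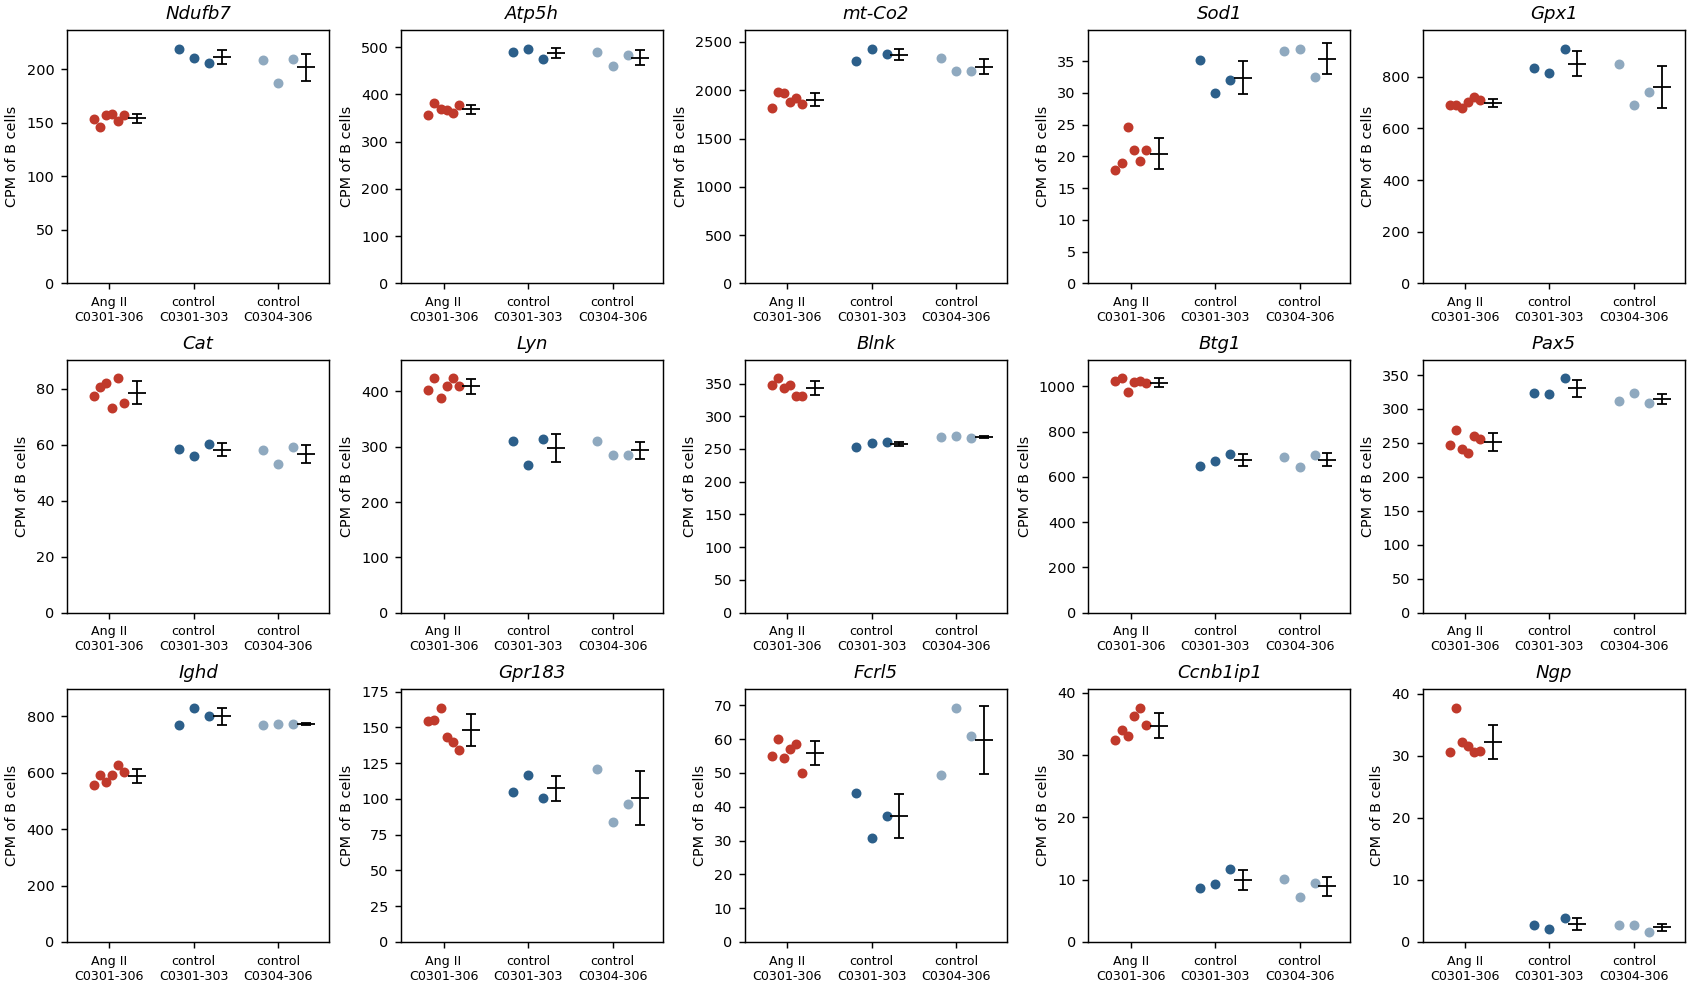
Each panel plots the CPM of 1 gene in B cells of each hashtag population (points) with the mean and SD beside them, for Ang II, control C0301 to C0303 and control C0304 to C0306. For Ndufb7, Sod1, Pax5 and Ighd all 6 Ang II points lie below all 6 control points, for Lyn, Blnk, Btg1, Ccnb1ip1 and Ngp above, and for Fcrl5 the control C0304 to C0306 points, at 49.4 to 69.3 CPM, reach into and above the Ang II range.

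Among immediate early genes, which respond within minutes to stimulation, 4 of 23 tested were higher and none lower, beside 8.87% and 10.3% of all genes. DESeq2 called 4 higher and 1 lower. Btg1, an antiproliferative gene in the list and not one of its classical members, had the smallest p. It was at 977, 1022 and 1035 CPM with Ang II against 647, 672 and 702 CPM (log2 fold change 0.55 ± 0.0413 SE, edgeR adjusted p = 1.3e-09). Myc was at 42.9, 57.5 and 68.1 CPM against 26.8, 36.5 and 22.5 CPM (0.92 ± 0.219 SE, edgeR adjusted p = 0.023), but control C0304 to C0306 reached 40.6 to 46.0 CPM. The call of Myc was lost without control C0301 (0.85) and without control C0303 (0.78). Fos, Jun and Egr1, the classical members, were not called (log2 fold changes 0.10, 0.24 and 0.33; edgeR adjusted p = 0.92, 0.66 and 0.45), and Fos is also among the genes high in neutrophil barcodes. The median of the list, 0.17, fell to -0.01 with the Ang II populations C0304 to C0306 alone. The summed list was also higher in NK barcodes, at 4016 to 5016 CPM with Ang II against 3377 to 3641 CPM.

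Of 12 glucocorticoid-responsive genes 10 were tested and 4 were higher, none lower by edgeR or DESeq2, with a median of 0.33. Over all genes 8.87% were higher and 10.3% lower. Pik3ip1, an inhibitor of PI3 kinase, was at 33.2, 35.3 and 42.2 CPM with Ang II and at 23.2, 25.5 and 24.1 CPM in the control (log2 fold change 0.53 ± 0.0896 SE, edgeR adjusted p = 0.00013). Ddit4 and Sesn1, which restrain mTOR, and Fkbp5, a chaperone of the glucocorticoid receptor, had log2 fold changes of 0.44, 0.34 and 0.39 (edgeR adjusted p = 0.003, 0.037 and 0.016). Tsc22d3, the gene of the glucocorticoid-induced leucine zipper, was at 394 ± 54.3 against 269 ± 37.2 CPM without overlap and was not called (0.51, edgeR adjusted p = 0.058). Thinning the B cells to 1000 UMIs left 2 of 9 tested called, while the median was 0.44. Fkbp5 lost its call without control C0302 (0.30) or C0303 (0.37), and Sesn1 without Ang II C0301 (0.31), C0303 (0.34) or C0304 (0.34) or control C0301 (0.28) or C0303 (0.29). The summed list overlapped in NK barcodes (646 to 1026 CPM against 622 to 702 CPM).

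**Figure D5:**
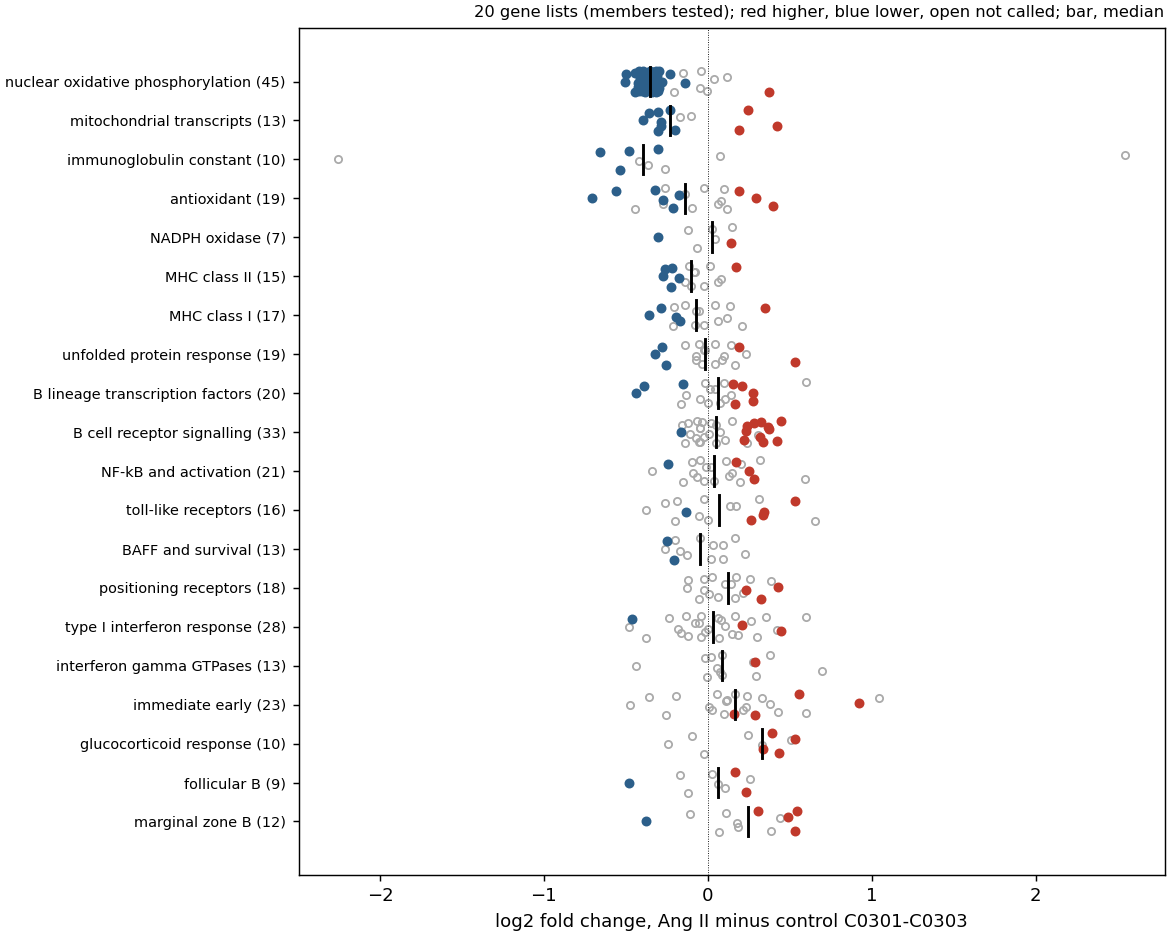
Each row is a gene list with the number of members tested, and each point the log2 fold change of 1 member (red called higher, blue called lower, open not called), with a bar at the median. The nuclear oxidative phosphorylation genes cluster at a median of -0.35, the mitochondrial transcripts at -0.23, and the glucocorticoid-responsive genes at 0.33, while the B cell receptor signalling and transcription factor lists have medians of 0.05 and 0.06.

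Several antigen presentation genes were lower by small amounts. Of 15 MHC class II pathway genes 5 were lower and 1 higher, with a median of -0.10, beside 10.3% lower and 8.87% higher over all genes. H2-Ab1, a class II chain, was at 2202, 2255 and 2303 CPM with Ang II and at 2607, 2606 and 2446 CPM in the control (log2 fold change -0.22 ± 0.0367 SE, edgeR adjusted p = 0.00014). Ciita, the transactivator of these genes, was at 164, 178 and 186 CPM against 208, 217 and 195 CPM (-0.27 ± 0.0541 SE, edgeR adjusted p = 0.00082). H2-DMa and H2-Ob, of the peptide loading machinery, had log2 fold changes of -0.26 and -0.18, whereas H2-DMb2 was higher at 0.17. The summed class II list was not lower: it overlapped, at 39660 to 41473 CPM with Ang II and 38925 to 40498 CPM in the control. The abundant Cd74 lay higher without overlap, at 25350 to 27043 against 23434 to 24952 CPM, but was not called. Of 17 class I pathway genes 4 were lower and 1 higher. Psmb9, of the immunoproteasome, had a log2 fold change of -0.36 (-0.24 without control C0302), and H2-T22, called higher at 0.35, was reversed in sign against control C0304 to C0306 (-0.14) and lost its call without control C0301 (0.26) or C0303 (0.30).

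Of 10 immunoglobulin constant genes tested 4 were lower and none was higher, by edgeR as by DESeq2. Over all genes edgeR called 10.3% lower and 8.87% higher. Ighd, the IgD heavy chain of mature naive B cells (chr12:113406604-113416324), was at 556, 592 and 627 CPM with Ang II and at 770, 831 and 801 CPM in the control (log2 fold change -0.48 ± 0.0433 SE, edgeR adjusted p = 3.5e-08). Ighm was at 1795, 1931 and 2058 CPM against 2551, 3815 and 2497 CPM (-0.66 ± 0.153 SE, edgeR adjusted p = 0.023), and control C0302 stood apart from the other control populations (-0.41 without it). Iglc2 and Iglc3, lambda constant genes that share much sequence, had log2 fold changes of -0.53 and -0.31. Among variable segments, grouped after the values were seen, 12 of 91 heavy chain segments (13.2%) were higher and none lower with edgeR. That share is not far from the 8.87% higher over all genes. With DESeq2 21 were higher and none lower. The median log2 fold change of the heavy chain segments was 0.86, with 80 above 0 and 11 below. It stayed between 0.64 and 0.92 over the 23 alternatives. Their summed level overlapped, at 3049 to 5279 CPM with Ang II and 1312 to 3267 CPM in the control, highest there in C0302. Of 96 kappa segments, edgeR called none, 7 had an unadjusted p under 0.05 and DESeq2 called 2. Ighv1-78 stood at 18.8 ± 3.33 against 6.61 ± 0.239 CPM, but at a mean of 14.4 CPM in control C0304 to C0306. Segment genes are near-identical in part, and their counts are uncertain.

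Markers of B cell subsets gave no uniform direction. Of 12 marginal zone genes 4 were higher and 1 lower, with a median of 0.25, beside 8.87% higher and 10.3% lower over all genes. Fcrl5, an inhibitory receptor of marginal zone B cells, was at 50.1, 56.1 and 60.0 CPM with Ang II and at 44.0, 30.9 and 37.2 CPM in the control (log2 fold change 0.54 ± 0.0877 SE, edgeR adjusted p = 8.2e-05). Pdia4, an endoplasmic reticulum enzyme, and Dtx1, a Notch target, had log2 fold changes of 0.53 and 0.49, and Plac8 was lower (-0.38). These calls depended on the control and on the cell limits. Against control C0304 to C0306 none of the list was higher and 4 were lower, with a median of -0.36 and -0.14 for Fcrl5. With the limits of 200 and 3500 genes read as UMIs, 1 was higher and 6 lower, with a median of -0.45 and -0.44 for Fcrl5. Cr2, which defines the marginal zone phenotype, was at 449 CPM on average against 417 CPM and was not called (edgeR adjusted p = 0.72).

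Counts of the next lists are to be read against 8.87% higher and 10.3% lower over all genes. Of 9 follicular genes 2 were higher and 1, Ighd, was lower. The higher ones were Cxcr5, the receptor for the follicle chemokine, and Fcer2a (log2 fold changes 0.23 and 0.17, edgeR adjusted p = 0.004 and 0.019). Fcer2a lost its call without Ang II C0306 (0.15) or control C0303 (0.14). Vpreb3, a gene of newly formed B cells, was the member called among 7 tested transitional genes, at 233, 280 and 325 CPM against 376, 373 and 450 CPM (log2 fold change -0.56 ± 0.103 SE, edgeR adjusted p = 0.0052), while control C0304 to C0306 ranged from 245 to 436 CPM. No B1 gene (7 tested, 2 with an unadjusted p under 0.05) and no germinal centre gene (10 tested, 1 under 0.05) was called by edgeR or DESeq2. Their medians, 0.31 and -0.52, changed sign among the alternatives. Of 19 cell cycle genes, Pcna, the replication clamp, was lower (40.1 ± 2.52 against 55.8 ± 3.74 CPM, log2 fold change -0.52, edgeR adjusted p = 1.6e-05) and Tubb5 higher (0.33). The median of the cell cycle list was -0.52, with 16 of 19 below 0, and ranged from -0.83 to 0.04 over the alternatives.

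Gpr183, the oxysterol receptor that guides B cells to the edge of follicles (chr14:121952551-121965195), led the list of positioning receptors. It was at 134, 149 and 164 CPM with Ang II and at 105, 117 and 100 CPM in the control (log2 fold change 0.43 ± 0.0754 SE, edgeR adjusted p = 0.00041). With Itgb2, an integrin chain, and Cxcr5, it made 3 higher and none lower of 18, as also by DESeq2. Over all genes 8.87% were higher and 10.3% lower by edgeR. For Gpr183, Ang II C0301 to C0303, at 155 to 164 CPM, stood above Ang II C0304 to C0306, at 134 to 143 CPM.

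Innate sensing, interferon and survival genes were called in small numbers in both directions, to be read against 8.87% higher and 10.3% lower over all genes, and many of these calls were close to the threshold. Of 16 Toll-like receptor genes 4 were higher, among them Tlr9, the receptor for unmethylated DNA, and Unc93b1, which carries it to endosomes (log2 fold changes 0.34 and 0.26, edgeR adjusted p = 0.0088 and 0.0002), and 1, Ly86, was lower (-0.13). Tlr9 was at 0.21 and not called without control C0302, and Ly86 lost its call without any of Ang II C0304, C0305 and C0306 and control C0301 and C0303 (-0.14 to -0.12). Of 28 type I interferon response genes 2 were higher, among them Irf7 (0.45), and 1, Slfn5, was lower (-0.46). Irf7 was not called without Ang II C0301, C0302, C0304 or C0306 or control C0301 or C0303 (0.33 to 0.47). Gbp9 was the member called, higher, among 13 interferon gamma GTPases (0.29, and 0.24 without control C0302, not called). Of 21 NF-kB and activation genes, Relb, Rela and Birc3 were higher and Cflar lower, with log2 fold changes of 0.28, 0.25, 0.17 and -0.24. Rela lost its call without Ang II C0305 or C0306 or control C0302 or C0303 (0.22 to 0.23), Birc3 without Ang II C0301, C0302, C0304 or C0306 or control C0301 or C0303 (0.11 to 0.19), and Cflar without Ang II C0302 or C0306 or control C0302 or C0303 (-0.24 to -0.20). Tnfrsf13b, a BAFF receptor, and Bax, a mediator of cell death, were lower among 13 survival genes (-0.25 and -0.21), calls lost without control C0303 (-0.16) and control C0301 (-0.19). In the unfolded protein response list 2 of 19 were higher and 3 lower, among them Pdia4 (0.53) and Calr (-0.32). No heat shock gene of 11 was called by edgeR or DESeq2, with 1 at an unadjusted p under 0.05, and their summed level was 4714 to 7823 CPM with Ang II, highest in C0301, against 4749 to 5424 CPM.

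By size of change, with segment genes, genes of other cell types and neutrophil-high genes left out, 1481 called genes had groups that did not overlap and a mean of 10 CPM or more. Before these limits, 1601 of the 2029 called genes, out of 10613 tested, had groups that did not overlap, so lack of overlap was usual among called genes. Ccnb1ip1, a ubiquitin ligase known for meiotic recombination (chr14:50789248-50807732), was among the highest, at 32.3, 34.4 and 37.6 CPM with Ang II and at 8.68, 9.25 and 11.7 CPM in the control (log2 fold change 1.81 ± 0.106 SE, edgeR adjusted p = 2e-11). Kcna3, a potassium channel of lymphocytes, and Chtf8, of a clamp loader, rose by 1.15 and 1.16. The noncoding RNA Gm42031 (chr8:85125872-85132289) had the highest value, 2.23, at 123 to 214 CPM against 22.2 to 48.3 CPM, with 47.5 and 14.8 CPM in NK barcodes. Gm47882, Gm8066, Gm45552, CAAA01147332.1, Gm37401 and Ftl1-ps1 made up the 10, with log2 fold changes of 1.57, 1.42, 1.21, 1.10, 1.06 and 1.06. In pooled NK barcodes each of these 10 was also higher with Ang II. Ccnb1ip1 was there at 22.8 against 8.48 CPM, Chtf8 at 44.5 against 17.0 CPM and Kcna3 at 19.8 against 10.6 CPM. The control values of these 3 genes rest on 4, 8 and 5 UMIs, and the NK differences were not tested. Ftl1-ps1 resembles Ftl1, the ferritin light chain, which was at 1091 ± 22.1 against 1046 ± 5.57 CPM and not called. Gm37401 is annotated as antisense at chr9:108337089-108338273, next to Gpx1 at chr9:108338903-108340343, and no source used here says whether strand was used in counting. The counts of both are therefore uncertain.

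The 10 lowest were Cks1b (-0.98), Cks2 (-0.75), 2610037D02Rik (-0.73), Chst3 (-0.73), Psme2b (-0.72), Sap25 (-0.71), Sod1 (-0.70), Xkrx (-0.70), 2310039H08Rik (-0.69) and Gm9993 (-0.67). Chst3, a sulfotransferase (chr10:60181532-60219260), was at 78.8, 87.5 and 101 CPM with Ang II and at 136, 141 and 154 CPM in the control (log2 fold change -0.73 ± 0.0654 SE, edgeR adjusted p = 3.2e-08). Cks1b and Cks2, small partners of cyclin-dependent kinases, were highest in control C0302, at 19.7 and 43.4 CPM. Without control C0302, Cks1b was at -0.57 and Cks2 at -0.37, and neither was called. Cks2 also lost its call without any of Ang II C0301, C0302, C0304, C0305 and C0306 (-0.81 to -0.72).

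Lists of other cell types differed widely in their summed level in B cells. The T cell list summed to 4.69 to 14.2 CPM with Ang II and 2.89 to 3.32 CPM in the control, and none of its 10 genes was abundant enough to test. The basophil list (5 genes, none tested) summed to 0.178 to 8.39 and 0.193 to 0.349 CPM, the platelet list to 3.36 to 23 and 14.8 to 22 CPM, the dendritic cell list to 4.98 to 9.88 and 4.24 to 16.8 CPM, and the monocyte and macrophage list to 27.9 to 48.1 and 29.9 to 33.2 CPM. Of the 4 NK genes tested Klrd1 was lower, at 0.864 ± 0.441 against 2.94 ± 1.47 CPM (log2 fold change -1.74, and -1.23 without control C0301, not called), and the list summed to 15.5 to 20.6 and 23 to 24.4 CPM. The plasma cell list summed to 1174 to 2101 and 634 to 2017 CPM, highest in Ang II C0304 and control C0302. The erythroid list reached 430 and 331 CPM in Ang II C0303 and C0305 and 130 CPM in control C0303, and 24.4 to 50.7 CPM in the other 6 populations. No tested gene of the erythroid (5), platelet (1), dendritic cell (1), monocyte and macrophage (3) or plasma cell (10) lists was called by edgeR or DESeq2, with an unadjusted p under 0.05 in edgeR for 1, 0, 0, 1 and 0 of them.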

How the data were processed

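The values the authors deposited are raw counts of UMIs for every gene and hashtag antibody in a barcode. The file headers name Cell Ranger 6.0.0. The submitters' processing notes name mm10. Barcodes with more than 200 and fewer than 3500 genes and under 15% mitochondrial UMIs were kept, which left 18146 of 18218 barcodes in the control library and 15826 of 16062 in the Ang II library. A hashtag was assigned when it had 20 or more UMIs and at least 3 times those of the next one. Of the barcodes kept, 12.1% and 13.1% carried no single hashtag and were left out, which removes doublets between hashtags. No other doublet caller was used. The control and Ang II libraries shared 415 barcode sequences.

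Counts of the B cells of each hashtag were summed. The main test was edgeR 4.0.16 (quasi-likelihood, robust, TMM, filterByExpr) on 6 Ang II against 3 control sums, with Benjamini-Hochberg adjustment over all genes tested and calls at an adjusted p under 0.05. DESeq2 1.42.0 was an alternative. The biological coefficient of variation between sums was 13.4%. Shares and depth were compared by exact permutation tests (scipy 1.17.1). The fit was checked on simulated counts. NK and neutrophil barcodes served only to measure RNA of other cells. Gene positions and transcript lengths are those of GENCODE vM21 on GRCm38, the same assembly as mm10, matched by identifier for 10601 of 10613 genes.

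Named genes were the 10 highest and 10 lowest log2 fold changes among called genes whose groups did not overlap and whose mean was 10 CPM or more in 1 group, leaving out immunoglobulin and T cell receptor segments, Xist, Tsix, Y-linked and rule genes, genes of other cell types and neutrophil-high genes; per list, up to 4 called members with the smallest p and members that define its function; all angiotensin genes; and the leading neutrophil genes. Every other gene was named after its values were seen. The members, the lists and the tests were chosen with earlier results of these data known. The B6.SLE123 library was not used in the comparison. Results for some genes that the rule would name are not reported here.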

Additional observations from a re-analysis of the deposited data

Results flagged for a closer look

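A value was picked out when 1 of the 6 Ang II hashtag populations stood far from the other 5 by Dixon's test at the 95% level. This held for 15 of 149 sets of 6 values examined (10.1%), where chance alone gives about 1 in 20, and many of the sets are related.

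Ang II C0302 had the highest share of neutrophil barcodes, 10.6%, the highest level of Ngp, 37.7 CPM, and the highest summed platelet list, 23 CPM. Ang II C0303 had the highest summed T cell (14.2 CPM), basophil (8.39 CPM) and cell cycle (745 CPM) lists and the lowest level of Btg1 (977 CPM), Gbp9 (41.4 CPM) and Fcer2a (339 CPM). Ang II C0301 had the highest level of Cyba (940 CPM) and Irf7 (25.4 CPM) and the lowest of H2-DMa (355 CPM). Ang II C0304 had the highest level of Plac8 (460 CPM) and the lowest summed B1 list (51.5 CPM), and Ang II C0306 the lowest level of Dtx1 (119 CPM). For the 6 genes Cyba, Irf7, H2-DMa, Btg1, Plac8 and Dtx1, as for Ngp, the outlying population still lay on the same side of all 3 control populations as the other 5, and for Gbp9 and Fcer2a it lay within their range.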

How the results depend on the processing

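The number of called genes, 2029, was compared over 23 alternatives and moved by over 1.5 times in 3: 1159 with B cells thinned to 1000 UMIs, 1138 with thinning before the B cell rule, and 1082 without B cells carrying a neutrophil-list UMI. Each of these leaves fewer UMIs and fewer genes tested. Leaving out 1 population gave 1490 to 1940 called genes, lowest without control C0302. The difference in median gene UMIs per B cell, 1062, was 1036 to 1092 with 1 population left out, and with 1 control population left out its exact permutation p was 0.0714, the smallest that 6 against 2 allows. Of 93 named genes called, 90 kept their direction under every alternative and 50 were called under each alternative that tested them. The exceptions were, against control C0304 to C0306, H2-T22 (-0.14), Pdia4 (-0.0209) and Fcrl5 (-0.14), and with the limits read as UMIs Fcrl5 (-0.44). No paired analysis was possible because the labels do not say that a hashtag number links a control and an Ang II population. The design limits all results: 1 library a group, 3 control populations and unequal depth.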
